A study of Mus musculus with 17 samples.

Results

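Interferon-stimulated genes are the set that cells switch on when they sense an interferon, and 36 of them, of the type I and type II response, were followed here in mouse liver. They are a fixed list of symbols of known interferon targets. All 36 were found among the 48440 genes of the authors' table, and all 36 had a mean of at least 10 normalized counts and were among the 14588 genes tested. Type I interferons act through a receptor whose signal brings STAT2 and IRF9 to a promoter element called ISRE. Type II interferon acts through its own receptor and a different element, GAS. In liver these genes are known to respond to virus, to bacterial products arriving from the gut and to nucleic acid from the body's own cells.

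The 17 libraries of polyadenylated RNA fell into 3 groups. The transgenic group held 6 libraries from miR-29 transgenic mice aged 2 months. The aged group held 5 libraries from wild-type mice aged 2 years, and the young wild-type group, used as control for both, held 6 libraries from wild-type mice aged 2 months. The design text names the wild-type strain as B6, a common inbred strain. The labels do not give the promoter, the family member or the number of founder lines of the transgene, so the cells that make the microRNA are not known here. Nor do they give the background strain of the transgenic mice, and a difference of strain could not be told apart from the transgene. Libraries were made in 2 places: 10 at the University of North Carolina by TruSeq polyA (batch A), and 7 at Cornell by NEBNext Ultra II Directional (batch B), which was all male. The transgenic libraries 1 to 3 were of batch A and 4 to 6 of batch B, with 1 female, library 3. The aged libraries 1 and 2 were female and 4 and 5 were the males of batch B. The young wild-type libraries 3 and 4 were female and 5 and 6 were the males of batch B.

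Values are the authors' normalized counts, which summed to between 28077001 and 44543936 per library. Sequencing depth is unknown, since whole reads could not be recovered from them. Every level given below is in normalized counts, and gene positions are those of GENCODE M21 on GRCm38. The sex-linked genes Xist and Ddx3y matched the labelled sex in all 17 libraries. Hepatocyte markers fitted the tissue, since the 7 of the list summed to 1728590.2 to 5511889 normalized counts in transgenic libraries, to 2445406 to 3885751 in aged ones and to 2615621 to 4217693 in young wild-type ones. Transgenic library 3 stood apart, with the smallest total, the largest mitochondrial share (8.55%, where the other 16 libraries lay at or below 8.19%) and the lowest level of 24 of the 36 genes. Aged library 4 was the lowest of its group in 33 genes. The labels do not say that each library is a separate animal, so p-values measure the spread between these libraries, which may be technical in part.

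The promoters show what the genes share in sequence. RefSeq (GRCm38.p6) gave a promoter, 250 bases before to 50 after a start, for 28 of the 36. The letters GAAA, any 2 bases and GAAA again, searched on both strands and standing for an ISRE, occurred in 18 of these 28 (64.3%), and in 3.99% of all genes with a promoter. The letters TTCNNNGAA, standing for a GAS element and the same on both strands, occurred in 10 (35.7%), against 9.55% of all genes, and 7 promoters held both. The windows of 100 bases below are from 6 genes whose levels are described next. Capitals mark every match, including overlapping ones.
Bst2 (chr8:71537548-71537647, minus strand): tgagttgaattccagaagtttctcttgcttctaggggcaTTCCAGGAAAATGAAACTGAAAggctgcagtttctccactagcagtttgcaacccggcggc
Oas3 (chr5:120777680-120777779, minus strand): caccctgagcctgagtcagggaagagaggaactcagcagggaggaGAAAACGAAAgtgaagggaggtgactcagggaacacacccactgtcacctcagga
Gbp2 (chr3:142620559-142620658, plus strand): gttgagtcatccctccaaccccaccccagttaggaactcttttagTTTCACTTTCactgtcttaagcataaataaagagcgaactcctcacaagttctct
Igtp (chr11:58199456-58199555, plus strand): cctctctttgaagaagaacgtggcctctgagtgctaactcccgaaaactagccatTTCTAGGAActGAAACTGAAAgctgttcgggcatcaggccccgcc
Isg15 (chr4:156200836-156200935, minus strand): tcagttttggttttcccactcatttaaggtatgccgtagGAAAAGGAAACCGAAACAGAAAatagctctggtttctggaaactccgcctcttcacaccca
Ifit1 (chr19:34640749-34640848, plus strand): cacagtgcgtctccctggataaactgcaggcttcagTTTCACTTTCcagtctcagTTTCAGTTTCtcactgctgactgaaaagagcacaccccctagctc
In Bst2 the GAS letters run into a pair of overlapping ISRE matches, in Igtp they stand just before one, and in Isg15 3 ISRE matches overlap. In Ifit1 a pair of separate matches face the other strand. A match is a description of letters and does not show that a factor binds there.

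A miR-29 seed match was about as frequent among these genes as among all genes. The mature miR-29 RNAs share 1 seed, bases 2 to 8, shown in capitals in the RefSeq sequences.
miR-29a-3p: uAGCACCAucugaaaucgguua
miR-29b-3p: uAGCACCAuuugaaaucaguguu
miR-29c-3p: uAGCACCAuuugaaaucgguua
The seed match TGGTGCT occurred in the longest GENCODE M21 3′ UTR of 4 of the 36 genes (11.1%), where 13.2% of 20829 genes with such a UTR held it. The windows of 30 bases below show these 4 with the match in capitals, and the coordinates (GRCm38) are those of the match.
Ddx58 (chr4:40205652-40205658, minus strand): ttggtttcaagcTGGTGCTgtccacacaaa
Irf1 (chr11:53777642-53777648, plus strand): taagctgccatgTGGTGCTgaaaattgaat
Trim25 (chr11:89017356-89017362, plus strand): ttatcatctcttTGGTGCTggggtctgaat
Rsad2 (chr12:26444107-26444113, minus strand): tggggtttttttTGGTGCTtatattaatac
None of the 4 passed the test in transgenic liver, where their log2 fold changes were 0.15 for Ddx58, 0.13 for Irf1, -0.30 for Trim25 and 0.72 for Rsad2.

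The study set an excess of miR-29 beside natural ageing, and the transgene comparison asked whether the 36 genes differ between transgenic and wild-type liver at 2 months. Tested with limma and adjusted for batch and sex, 0 of 36 passed at an adjusted p under 0.05, while 6.71% of all genes tested did. At an unadjusted p under 0.05 there were 2 (both lower), against 21.2% of all genes. The median log2 fold change was -0.32, beside 0.01 over all genes, and 27 of the 36 fitted values were below 0. In bulk liver RNA, fewer cells of a type and less RNA per cell cannot be told apart. The sign rests on 1 library, since the median was 0.17 without transgenic library 3 and 0.32 among males alone. No gene had all 6 transgenic libraries above all 6 young ones (1.11% of all genes) or below them (1.84%). The median was -1.01 in batch A alone and 0.56 in batch B alone. The authors' deposited table gives 2 genes as lower at an adjusted p under 0.05, namely Bst2 (log2 fold change -1.39, adjusted p = 1.65e-05) and Iigp1 (-1.07, adjusted p = 0.0309). Over all its genes that table called 2211 of 15714, higher or lower. The median of the 36 in that table is -0.06. Mx1 and Oas3, listed at 0 in transgenic library 3, have 0.55 and -0.12 there and -1.06 and -1.41 in the fit here. Other genes turn from below 0 in the fit to above 0 there, among them Ifi44 (-0.23 and 0.69), Gbp3 (-0.40 and 0.38) and Ifit1 (-0.28 and 0.30).

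Libraries of the same group differed widely. Averaged over the 36 genes, as log2 differences from the young wild-type mean, transgenic libraries 1 to 6 lay at -0.95, 0.91, -2.14, 0.79, -0.20 and -0.17. Aged libraries 1 to 5 lay at 0.17, 0.24, 0.34, -1.01 and 0.99, and the 6 young wild-type libraries between -0.46 and 0.41. So transgenic libraries 2 and 4 were high and 1 and 3 low, aged library 5 was high and 4 low, and the young libraries stayed close together. Counted per library, transgenic library 3 lay below all 6 young wild-type libraries in 27 of 36 genes (23.1% of all genes), library 1 in 17 (14.5%) and aged library 4 in 23 (16.4%). Transgenic library 2 lay above all 6 in 28 (18.1%), library 4 in 20 (13.0%) and aged library 5 in 19 (12.2%). The 74 other interferon-stimulated genes that were tested, which are not among the 36, averaged -0.86, 0.20, -1.60, 0.16, -0.45 and -0.27 in the transgenic libraries and -0.62 and 0.79 in aged libraries 4 and 5.

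**Figure D1:**
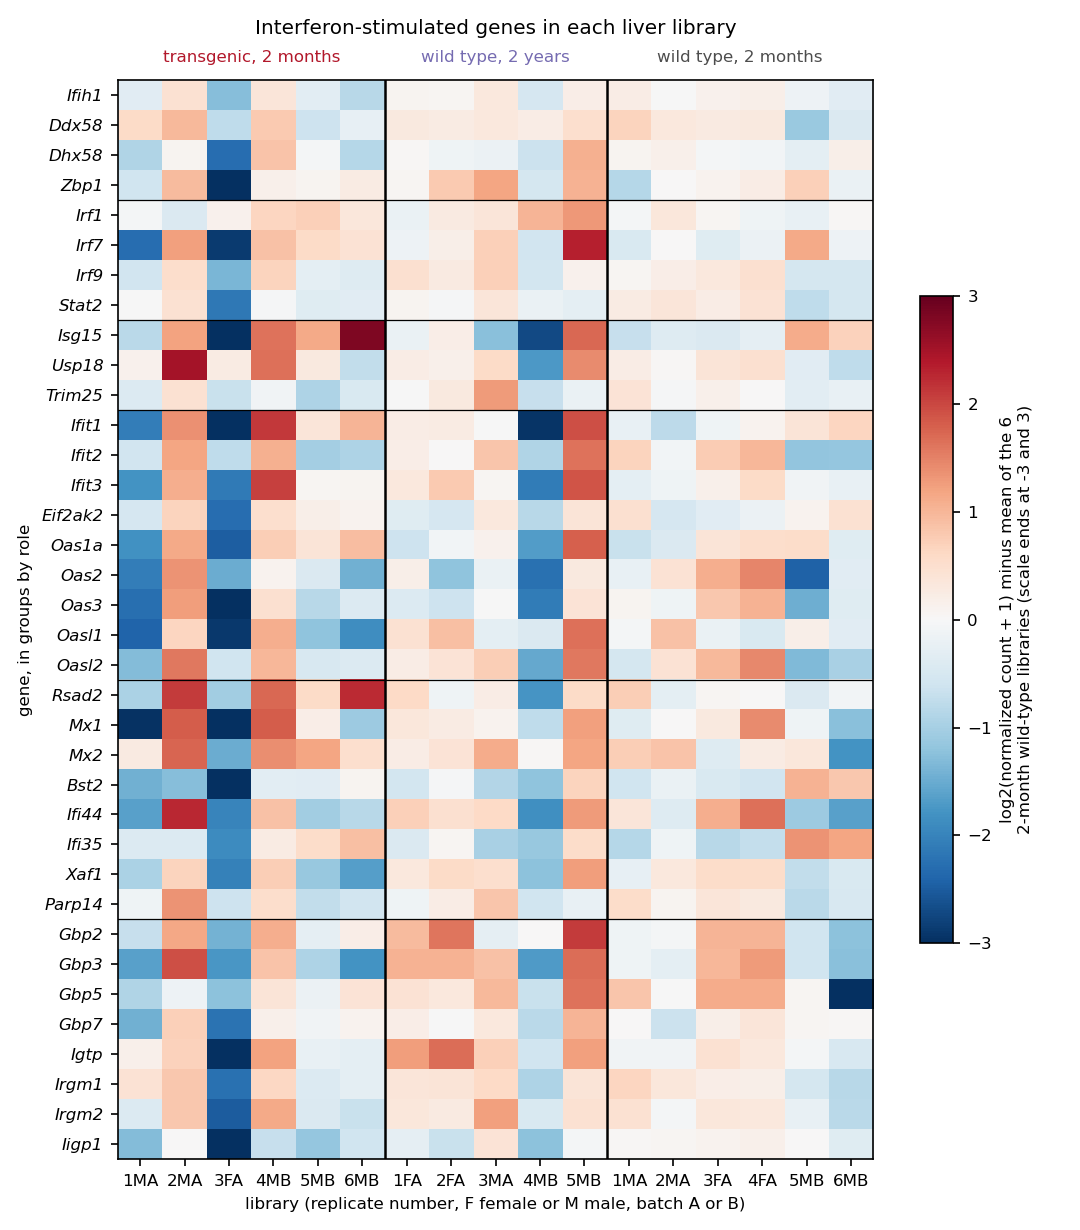
Each row is 1 of the 36 genes in order of role, each column 1 library, and the colour is the log2 difference from the mean of the 6 young wild-type libraries, clipped at -3 and 3. Whole columns share a colour: transgenic library 3 is blue in 34 of 36 rows, transgenic libraries 2 and 4 and aged library 5 are red in 32 rows each, and aged library 4 is blue in 32.

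**Figure D2:**
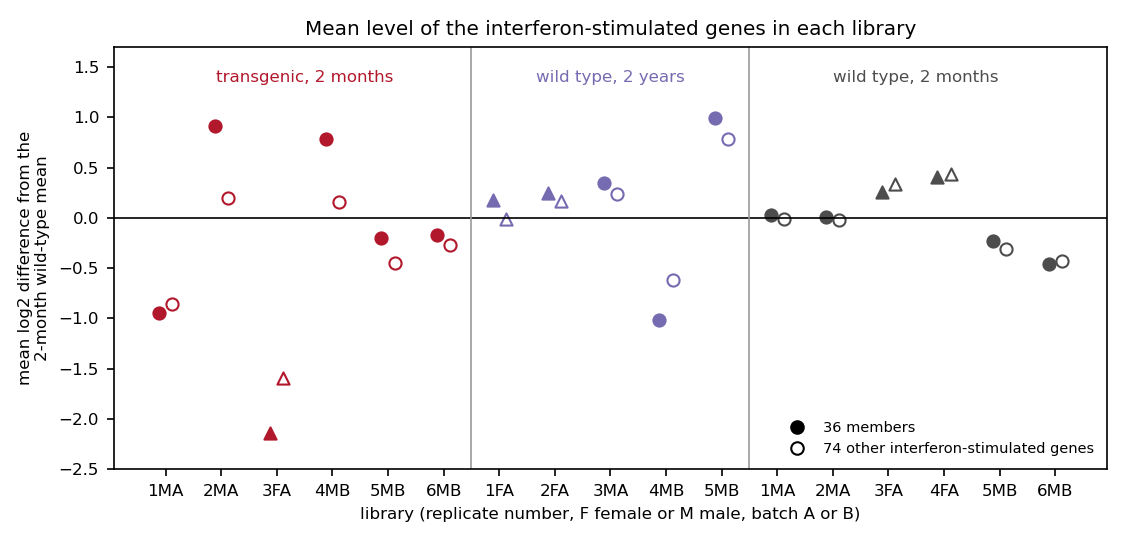
The vertical axis is the mean log2 difference from the young wild-type mean, for the 36 genes (filled) and for 74 other interferon-stimulated genes (open), in each of the 17 libraries on the horizontal axis. Triangles are females. The transgenic libraries run from -2.14 to 0.91 for the 36 genes, and the young wild-type ones from -0.46 to 0.41.

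The sensors come first in the response. Ifih1 (MDA5) and Ddx58 (RIG-I) detect viral RNA in the cytosol, Dhx58 (LGP2) modulates them, and Zbp1 binds left-handed nucleic acid and can trigger necroptosis. Fitted log2 fold changes of these 4 ran from -0.89 to 0.15 in transgenic liver and from 0.05 to 0.58 with age, and none passed. Dhx58 (chr11:100694884-100704271) had 67.9 at the lowest, 254 at the median and 609 at the highest in transgenic livers, 344, 306, 299.6, 216 and 703 in the 5 aged livers, and 273 at the lowest, 340.1 at the median and 382 at the highest in young wild-type livers. The young livers were close together, and the transgenic ones lay on both sides of them. Its log2 fold change was -0.65 ± 0.38 (SE, limma adjusted p = 0.365) in transgenic liver and 0.05 ± 0.40 with age. Zbp1 had 8.26 normalized counts in transgenic library 3 and 188 to 551 in the other 5, against 157 to 471 in young wild-type livers. Its low value stood in 1 library, while the other transgenic libraries overlapped the young ones. Ddx58 ranged from 257 to 852 in transgenic, from 505 to 615 in aged and from 198 to 694 in young wild-type livers, and Ifih1 from 382 to 1265 in transgenic, from 651 to 1163 in aged and from 728 to 1079 in young wild-type livers.

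Among the transcription factors, Stat2 and Irf9 form the factor that reads the ISRE, Irf7 drives the amplification of type I interferon, and Irf1 is a main target of type II interferon. None of the 4 passed in transgenic liver, with log2 fold changes of -0.60 to 0.13. Irf7 had 338, 3856, 224, 3043, 2450.4 and 2229 normalized counts in transgenic libraries 1 to 6, 1493, 1863, 2709, 1102 and 8264 in the aged libraries, and 1205 at the lowest, 1474 at the median and 3622 at the highest in young wild-type ones. Transgenic libraries 1 and 3 lay below every young library, and aged library 5 was the highest of the 17. Its log2 fold change was -0.60 ± 0.58 (limma adjusted p = 0.617) in transgenic liver and 0.49 ± 0.60 (adjusted p = 0.792) with age. Stat2 had 254 in transgenic library 3, against 666 to 1523 in young wild-type livers, and its SD on the log2 scale was 0.90 among transgenic, 0.25 among aged and 0.51 among young wild-type libraries.

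Irf1 (chr11:53770014-53778374) had the smallest p with age and is described on its own. It had 386 at the lowest, 622 at the median and 854 at the highest in transgenic livers, 459, 635, 677, 1069 and 1301 in the aged livers, and 449 at the lowest, 519.9 at the median and 658 at the highest in young wild-type livers. It was the 1 gene of the 36 that was not low in transgenic library 3 relative to females, at 577 against 542 and 479 in the young wild-type females. In aged males it had 677, 1069 and 1301, all above the 4 young wild-type males, of which the highest had 658. The values 1069 and 1301 were those of batch B. Irf1 was the only gene of the 36 with this separation, a count near the share of all genes (3.86%). With age its log2 value was 0.53 ± 0.22 (SE, limma adjusted p = 0.535), and it did not pass. No gene was lower in all 3 aged males than in all young ones (3.48% of all genes). The fitted values were 0.12 in batch A alone and 1.26 in batch B alone.

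Isg15 is a ubiquitin-like protein attached to other proteins, Usp18 removes it and also blocks the type I receptor, and Trim25 is a ubiquitin ligase that activates RIG-I. Isg15 (chr4:156199424-156200818) had 334, 1352, 49.7, 1824, 1300.0 and 4113 normalized counts in transgenic libraries 1 to 6, 514, 677, 247, 89.0 and 1950.0 in the aged ones, and 363 at the lowest, 467 at the median and 1259 at the highest in young wild-type ones. The transgenic libraries held both the lowest and the highest value of the 17. The log2 fold change was 0.13 ± 0.79 (limma adjusted p = 0.948) in transgenic liver and -0.51 ± 0.83 with age. Usp18 (chr6:121245906-121270917) had 258 at the lowest, 516 at the median and 2438 at the highest in transgenic livers, 501, 476, 644, 130.0 and 1142 in aged livers, and 254 at the lowest, 471 at the median and 596 at the highest in young wild-type livers. Transgenic libraries 2 and 4 and aged library 5 were high, aged library 4 was lowest, and the groups overlapped. Usp18 had the largest fitted value above 0 in transgenic liver, 0.76 ± 0.50 (limma adjusted p = 0.429), and Trim25 had -0.30 ± 0.23 (adjusted p = 0.506).

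A set of 9 genes blocks translation or degrades RNA. The IFIT proteins bind foreign RNA, Eif2ak2 (PKR) halts translation when it meets double-stranded RNA, the OAS enzymes make the messenger that activates RNase L, and Oasl1 holds back Irf7 translation in mouse. Of the 9 fitted values in transgenic liver 8 were below 0, in a range of -1.41 to 0.10, and none passed. Ifit1 (chr19:34640871-34650009) had 84.4, 934, 33.8, 1555, 463 and 723 normalized counts in transgenic libraries 1 to 6, 417, 428, 356, 45.5 and 1373 in the aged ones, and 207 at the lowest, 356 at the median and 565 at the highest in young wild-type ones. Its SD on the log2 scale was 2.15 among transgenic, 1.77 among aged and 0.51 among young wild-type libraries. The groups overlapped, and the log2 fold change was -0.28 ± 0.83 (limma adjusted p = 0.886) in transgenic liver and -0.15 ± 0.87 (adjusted p = 0.965) with age.

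Oas3 (chr5:120753098-120777661) had 12.6, 154, 90.3, 35.6 and 47.5 normalized counts in transgenic libraries 1, 2, 4, 5 and 6 and is listed at 0 in library 3. It had 47.7, 41.5, 63.6, 14.1 and 85.7 in the aged libraries and 67.8, 58.8, 112, 134, 22.5 and 49.8 in the young wild-type libraries 1 to 6. Without the library at 0 the transgenic values lay on both sides of the young ones. The log2 fold change was -1.41 ± 0.92 (limma adjusted p = 0.418) and was -0.07 without transgenic library 3, 0.66 in batch B alone and 0.15 in males alone.

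Oasl1 (chr5:114923240-114937915) had 39.2 at the lowest, 105 at the median and 635 at the highest in transgenic livers, 408, 558, 243, 222 and 945 in aged livers, and 216 at the lowest, 276 at the median and 556 at the highest in young wild-type livers. Transgenic libraries 1, 3, 5 and 6 lay below every young and aged library, while 2 and 4 lay within or above the young range. The log2 fold change was -1.22 ± 0.60 (limma adjusted p = 0.254) against young and -1.70 ± 0.63 (adjusted p = 0.193) against aged wild type, which was the smallest p of the set in that comparison. Ifit3 and Oas1a have close copies in their clusters, so the value of a single copy is uncertain.

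Bst2 (tetherin), which holds budding virus at the cell surface, came closest to the threshold. Bst2 (chr8:71534255-71537456) had 2811, 3155, 725, 6117, 6017 and 8058 normalized counts in transgenic libraries 1 to 6, 5207, 7379.7, 4146, 3292 and 12119 in the aged libraries, and 5015, 6627, 5518, 5081, 15575 and 13301 in the young wild-type libraries 1 to 6. In each batch all 3 transgenic values lay below all young ones of that batch, and over both batches together the groups overlapped. Of the 36 genes, Bst2 and Iigp1 had this separation in both batches, 2 lower and 0 higher (4.03% and 3.0% of all genes). The means were 4481 ± 2701 in transgenic livers and 8519.6 ± 4676 in young wild-type livers (SD, n = 6 each). The log2 fold change was -1.34 ± 0.39 (SE, limma adjusted p = 0.0503), just outside the threshold, and -0.84 (adjusted p = 0.161) without transgenic library 3. It was -1.65 in batch A alone and -1.11 in batch B alone, and -0.45 ± 0.41 (adjusted p = 0.725) with age.

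The other 7 antiviral effectors had log2 fold changes of -1.06 to 0.72 in transgenic liver, and none passed. Rsad2 (viperin) makes a chain-terminating nucleotide, Mx1 and Mx2 are GTPases that block virus, with Mx1 truncated in most inbred strains, Xaf1 promotes cell death, and Parp14 transfers ADP-ribose. Mx1 had 3.87, 133, 133, 42.8 and 16.99 normalized counts in transgenic libraries 1, 2, 4, 5 and 6 and is listed at 0 in library 3, with 47.5, 43.9, 40.2, 21.5 and 88.7 in aged and 14.9 to 101 in young wild-type libraries. Its SD on the log2 scale, 2.80 among transgenic libraries, counted with the listed 0, was the largest of the 36, beside 0.71 among aged and 0.88 among young wild-type ones. Ifi44 and Ifi35 had log2 fold changes of -0.23 ± 0.72 and -0.39 ± 0.37, and Xaf1 -0.69 ± 0.49. Rsad2 had 164, 1370.0, 155, 1063, 476 and 1522 in transgenic libraries 1 to 6 and 237 to 530.2 in young wild-type ones, with libraries 1 and 3 below and 2, 4 and 6 above that range. Mx2 (chr16:97535308-97560900) had 44.6 at the lowest, 233 at the median and 427 at the highest in transgenic livers, 148, 169, 274, 130.0 and 286 in aged livers, and 35.5 at the lowest, 155 at the median and 228 at the highest in young wild-type livers, with log2 fold changes of 0.51 ± 0.46 (limma adjusted p = 0.586) and, with age, 0.71 ± 0.48 (adjusted p = 0.65).

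The last 8 genes encode GTPases that attack or guard the membranes around intracellular microbes and answer mainly to type II interferon. The guanylate-binding proteins Gbp2, Gbp3, Gbp5 and Gbp7 and the effector Iigp1 coat such membranes, while Irgm1, Irgm2 and Igtp regulate the effector GTPases. In transgenic liver 7 of the 8 fitted values were below 0 (median -0.35, range -1.22 to 0.08) and with age 7 were above 0 (median 0.51, range -0.28 to 0.89), and none passed in either comparison. The comparisons share their 6 young libraries, so these counts are not independent. Iigp1 had 4554, 11235, 1263, 6935, 4993 and 7425 normalized counts in transgenic libraries 1 to 6, 9252, 7091, 14979, 4804 and 10773 in aged ones, and 8735 at the lowest, 11545 at the median and 12530.1 at the highest in young wild-type ones. Its SD of log2 values among young libraries, 0.18, was the smallest of the 36 after Dhx58, and 5 transgenic libraries lay below all young ones, library 2 being the exception. The means were 6067 ± 3342 in transgenic and 11276 ± 1322 in young wild-type livers (SD, n = 6 each), and the log2 fold change was -1.22 ± 0.37 (limma adjusted p = 0.0602). It was -0.72 without transgenic library 3, -1.72 in batch A alone and -0.64 in batch B alone.

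Igtp (chr11:58199556-58207591) had 93.3 at the lowest, 868 at the median and 2052 at the highest in transgenic livers, 2096, 2827, 1442, 579 and 2077 in aged livers, and 629 at the lowest, 836 at the median and 1204 at the highest in young wild-type livers. Aged libraries 1, 2, 3 and 5 lay above every young library and library 4 below them all. The log2 fold change was 0.89 ± 0.60 (limma adjusted p = 0.65) with age and -0.32 ± 0.58 (adjusted p = 0.814) in transgenic liver. Igtp and Irgm2 overlap in the annotation on the same strand, so reads in the overlap cannot be told apart. Gbp2 (chr3:142620602-142638008) had 57.9 at the lowest, 155 at the median and 349 at the highest in transgenic livers, 299.9, 474, 129.9, 156 and 666 in aged livers, and 65.3 at the lowest, 146 at the median and 318 at the highest in young wild-type livers. Aged libraries 2 and 5 were above the young range and the others within it. Its log2 fold change was 0.84 ± 0.55 (limma adjusted p = 0.645) with age and 0.08 ± 0.53 (adjusted p = 0.955) in transgenic liver. Irgm1 had 285 in transgenic library 3 and 715 in aged library 4, each the lowest of its group, while the other transgenic livers had 1027 to 2359.7, the other aged livers 1732 to 2046 and the young wild-type livers 763 to 2103. The Gbp genes are a cluster of close copies, so single values are uncertain.

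**Figure D3:**
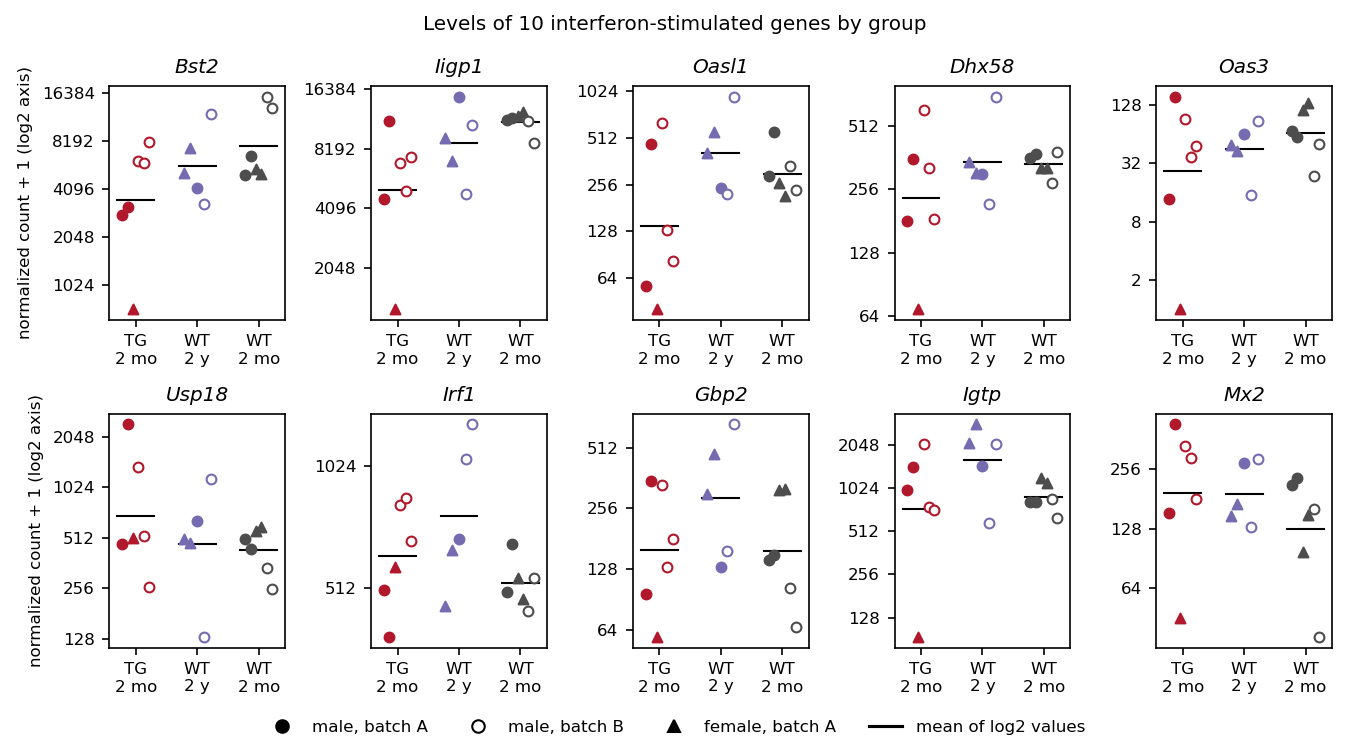
Normalized counts plus 1 on a log2 axis for the 10 genes with the smallest p in the transgene comparison (6) or in the age comparison (4), per library, with the mean of log2 values as a bar, triangles for females and open symbols for batch B. Under every young wild-type point lay 5 of 6 transgenic points for Iigp1, 4 of 6 for Oasl1 and 3 of 6 for Bst2, and Irf1 had its highest values in aged males of batch B (1069 and 1301).

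The age comparison asked whether the same genes differ between 2-year-old and 2-month-old wild-type liver. By limma 0 of 36 passed, beside 0.144% of all genes, and 1 had an unadjusted p under 0.05, beside 8.73%. The median log2 fold change was 0.23, beside 0.00 over all genes, and 26 of 36 fitted values were above 0. The authors' deposited table likewise called 0 of 36, beside 280 of all its 15814 genes. The median was 0.13 in batch A and 0.38 in batch B, 0.51 without aged library 4 and 0.02 without aged library 5. No gene of the 36 had all 5 aged libraries above all 6 young ones (0.35% of all genes) or below them (0.26%). Between the 2 aged and the 2 young females 7 genes were higher without overlap (28.9% of all genes) and 13 lower (25.4%), Oas1a, Oas2, Oas3 and Iigp1 among them.

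Set directly against aged wild-type liver, where genotype and age differ together, transgenic liver again had 0 of 36 genes past the test (2.55% of all genes), 3 at an unadjusted p under 0.05 (15.3% of all genes), a median of -0.49 (0.02 over all genes) and 31 fitted values below 0. Without transgenic library 3 the median was -0.02. Side by side and sharing the same young controls, the transgene and age values of the genes named above were -1.34 and -0.45 for Bst2, -1.22 and -0.28 for Iigp1, -1.22 and 0.48 for Oasl1, -0.32 and 0.89 for Igtp, and 0.13 and 0.53 for Irf1.

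**Figure D4:**
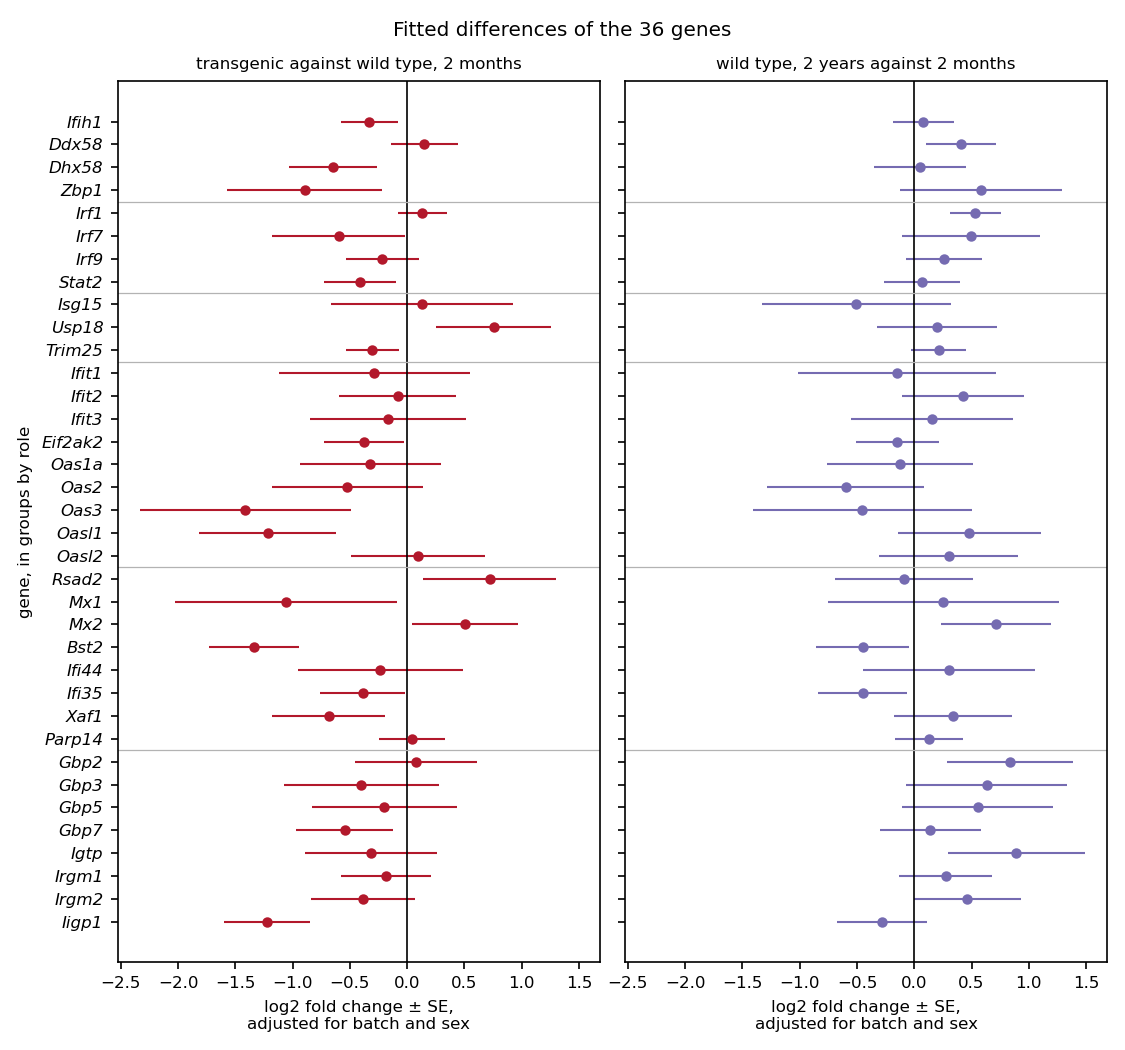
Log2 fold changes with their SE for the 36 genes, adjusted for batch and sex, in transgenic against wild-type liver at 2 months (left) and in wild-type liver at 2 years against 2 months (right). Values run from -1.41 to 0.76 on the left and from -0.60 to 0.89 on the right, with wide errors for Isg15, Ifit1, Oas3 and Mx1.

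The spread within groups was then described for its own sake. The SD of a gene's log2 values was larger among the 6 transgenic than among the 6 young wild-type libraries in 32 of 36 genes (50.3% of all genes), with medians of 1.17 and 0.54 (0.66 and 0.65 over all genes). The exceptions were Oas2, Oasl2, Ifi35 and Gbp5, of which Gbp5 had a value of 2.66 in young wild-type library 6, against 29.9 to 66.9 in the other 5. The count was 28 without transgenic library 3 and 27 among males alone (41.0% of all genes). It was 36 in batch A alone (64.6%) and 28 in batch B alone (66.7%), where the young SD came from 2 libraries. Of the 74 other interferon-stimulated genes 57 were more spread among transgenic libraries. Among aged libraries the SD exceeded that of the young ones in 27 of 36 (37.8% of all genes), with a median of 0.79, in 31 among males alone (36.7%), and in 15 without aged library 4. It did so in 18 in batch A alone (61.9% of all genes), where the median SDs were 0.37 among aged and 0.38 among young libraries. With libraries rescaled to the same total it did so in 20 (37.9%). The count was 32 in batch B alone (61.2%), where each SD came from 2 libraries, the aged ones being libraries 4 and 5. No test was run on these counts, since genes measured in the same library are not independent. In order of SD among transgenic libraries, with listed zeros counted for the first pair, the first 5 were Mx1 (2.80), Oas3 (2.61), Isg15 (2.26), Ifit1 (2.15) and Zbp1 (2.14), and the least spread was Irf1 (0.44).

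**Figure D5:**
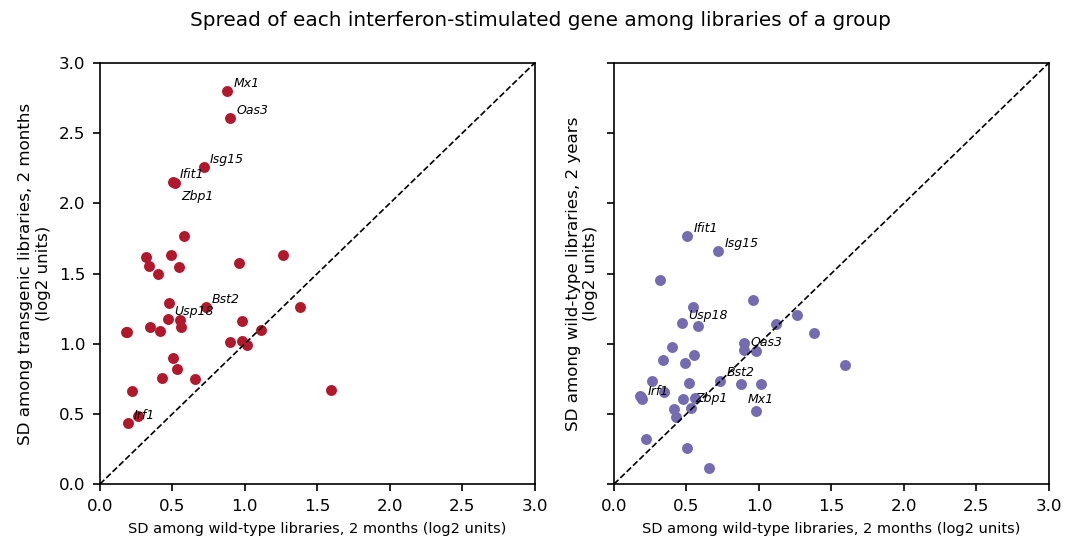
Each point is 1 of the 36 genes, with the SD of its log2 values among young wild-type libraries on the horizontal axis and among transgenic (left) or aged (right) libraries on the vertical axis. Points above the dashed line of equal SD number 32 on the left and 27 on the right.

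The single transgenic female, library 3, was the extreme case. It lay below both young wild-type females in 35 of 36 genes (43.9% of all genes lay below both), Irf1, above both, being the exception (44.7%). Between the 5 transgenic males and the 4 young wild-type males 0 of 36 genes separated, in either direction (2.85% of all genes higher, 3.44% lower). At these shares few of 36 genes would separate, so the 0 does not show that males lack a difference. The counts in females and males are not alike, since a single library separates more easily than a group. The interaction of transgene with sex, which has this 1 library as its female transgenic arm, passed by limma for 6 of 36 genes (1.3% of all genes), with each value below 0. Its log2 value, the effect in females minus that in males, was -2.65 for Stat2, -5.35 for Zbp1, -4.13 for Igtp, -7.10 for Oas3, -2.84 for Irgm1 and -2.63 for Iigp1. The fit matches library 3 exactly, so the SE and p of this term hold no spread among transgenic females and are not given. The Oas3 value rests on a listed 0, so its size depends on the pseudocount. With 1 transgenic female, a difference between the sexes and a trait of that library cannot be told apart. The interactions of transgene with batch (0.5% of all genes), of age with batch (0.0206%) and of age with sex (0.0137%) were called for 0 of 36 genes. At an unadjusted p under 0.05 they had 6, 2 and 1 of the 36, beside 2287, 3279 and 2969 of all 14588 genes tested.

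The interferon transcripts themselves were at or near 0. Of 21 interferon genes none reached a mean of 10. The type I, epsilon and lambda genes are listed at 0 in all 17 libraries except Ifnb1, which reached 2.45, and Ifnz and Ifnk, at or below 1.69. Ifng, the type II interferon, is listed at 0 in 10 libraries and was highest in young wild-type library 5, at 11.4, with at most 1.13 in transgenic libraries. Of 15 receptor and JAK-STAT genes tested, 0 passed with the transgene (6.71% of all genes) or with age (0.144%). The inhibitor Socs3 averaged 1141 ± 862 normalized counts in transgenic and 197 ± 115 in young wild-type livers (SD, n = 6 each), or 2.08 ± 0.61 on the log2 scale (limma adjusted p = 0.0512). The type II receptor chain Ifngr1 had 0.52 ± 0.16 (adjusted p = 0.0601).

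Of 19 nucleic acid sensing genes tested, 2 fell and 0 rose in transgenic liver (3.83% and 2.89% of all genes did), and 0 passed with age (0.144%). Irf2, a repressor that competes with Irf1 for the same promoter element, fell to 875 ± 385 in transgenic livers, against 1524 ± 455 in young wild-type livers (SD, n = 6 each), which is -0.98 ± 0.17 on the log2 scale (limma adjusted p = 0.00189). It was -0.94 (adjusted p = 0.00607) without transgenic library 3 and -1.14 and -0.79 in batches A and B, the batch B value alone not passing (adjusted p = 0.171). Irf5, which drives cytokine genes downstream of Toll-like receptors, fell (log2 fold change -0.94 ± 0.26, adjusted p = 0.0394), and lost the call in 9 of 17 fits that left out 1 library, namely those without transgenic library 1, 2, 3 or 6, young wild-type library 2, 3, 4 or 5 or aged library 1 (adjusted p of 0.0508 to 0.122), and in 7 of 15 other alternatives.

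Of the 74 other interferon-stimulated genes, 5 fell and 1 rose in transgenic liver (3.83% and 2.89% of all genes did), with a median of -0.37. With age 0 passed (0.144% of all genes). The guanylate-binding gene Gbp2b fell to 9.44 ± 6.17 normalized counts in transgenic livers, against 87.7 ± 63.2 in young wild-type livers (SD, n = 6 each), which is -2.53 ± 0.47 on the log2 scale (limma adjusted p = 0.00304), and passed without transgenic library 3 as well (-2.51, adjusted p = 0.00888). Its levels also differed by batch, with 5.62, 14.9 and 16.9 in transgenic and 83.7 to 171 in young wild-type libraries of batch A, and 12.9, 2.80 and 3.56 in transgenic and 17.8 and 14.4 in young wild-type libraries of batch B. Every transgenic library lay below every young one of its batch. The log2 fold change was -3.17 in batch A alone and -1.45 (adjusted p = 0.35) in batch B alone. The other falls were Ciita, the master activator of MHC class II genes (-2.39 ± 0.61), the small interferon-induced protein Ifi27 (-1.45 ± 0.39), Gbp10 (-4.07 ± 1.10, listed at 0 in 1 library) and the immunoproteasome subunit Psmb9 (-1.47 ± 0.40). Their adjusted p lay between 0.0258 and 0.036. Without transgenic library 3 none of these 4 passed, at -1.87, -1.15, -2.72 and -1.04. The rise was that of Ifitm1, which blocks virus entry (log2 fold change 1.03 ± 0.28, limma adjusted p = 0.0369). Ifitm1 had 279 at the lowest, 459 at the median and 933 at the highest in transgenic livers. In young wild-type livers these were 192, 272 and 305. Ifitm1 lost the call in 8 of 17 fits that left out 1 library and in 5 of 15 other alternatives. Its log2 fold change was 0.59 in batch A alone and 1.56 in batch B alone. Without transgenic library 3 the list had 1 fall, Gbp2b, and 3 rises, Ifitm1, Ifitm2 and Isg20. In batch B alone 0 of 72 passed. Leaving out 1 library at a time gave 1 to 9 calls, with 1 without transgenic library 5 or young wild-type library 3 or 4, 3 without transgenic library 1 or young wild-type library 1, 2, 5 or 6, and 9 without aged library 4.

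Immune cell markers were low or high in some of the same libraries and not in others. Of 13 T and NK cell markers 11 were tested, with 0 called in transgenic (6.71% of all genes) or aged liver (0.144%). Their mean log2 difference from the young wild-type mean was -1.01 in transgenic library 3, the lowest of the 17, -0.75 in library 1, -0.93 in aged library 4 and 1.78 in aged library 5, the highest, and so was low in libraries with low interferon-stimulated genes and high in 1 with high ones. In transgenic libraries 2 and 4, which were high, it was -0.45 and 0.05. In aged library 3, where the 36 genes averaged 0.34, it was -0.69. Their summed level was 165 to 430.1 normalized counts in transgenic, 125 to 1098 in aged and 195 to 446 in young wild-type libraries, and Cd8a, Ncr1 and Prf1 are listed at 0 in 1, 2 and 4 libraries.

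Markers of plasmacytoid dendritic cells, which are known for making type I interferon, were near 0. Of 6 such markers only Tcf4, which other cells express too, reached a mean of 10. Its log2 fold change in transgenic liver was 0.02 (limma adjusted p = 0.988). Siglech, the defining one, had 1.07, 3.58 and 4.26 normalized counts in transgenic libraries 4, 5 and 6 and is listed at 0 in 1, 2 and 3. It had 7.73, 7.86, 4.86 and 20.2 in aged libraries 1, 2, 3 and 5, is listed at 0 in library 4, and had 11.4 to 23.5 in young wild-type ones. So all 6 transgenic libraries lay below all 6 young ones, a comparison chosen after the values were seen and left out of the test for its low mean. Of all genes tested 1.84% were lower without overlap. That share covers genes with a mean of at least 10 and is no background for a gene this near the floor. Neutrophil markers rose in transgenic liver, 9 of 9 tested, beside 2.89% of all genes. Their mean log2 difference was 1.90 to 7.66 over the transgenic libraries, from 0.35 to 4.18 over aged and from -0.94 to 1.53 over young wild-type ones. They summed to 464 to 44434 normalized counts in transgenic, 104 to 2109.8 in aged and 35.8 to 509.8 in young libraries. They were high both in transgenic library 3 (6.17), where the 36 genes were lowest, and in library 4 (5.55), where they were high. Kupffer cell markers averaged 0.27, 0.49, -0.53, 1.03, 1.47 and 1.81 in transgenic libraries 1 to 6 and -0.25, 0.46, 0.14, 0.43 and 1.40 in aged libraries 1 to 5. They were highest in transgenic libraries 6 and 5, where the mean of the 36 genes lay within the range of the young wild-type libraries. Over all genes tested 2.89% rose and 3.83% fell in transgenic liver. Of the other marker lists tested there, 1 of 7 Kupffer cell, 1 of 6 sinusoidal endothelial and 4 of 6 erythroid markers rose. Of the 7 hepatocyte markers 0 passed, and of 5 B cell markers 1 rose and 1 fell. The part of these cells in the levels of the 36 genes was not tested.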

How the data were processed

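RNA-seq values came from a table of 17 mouse liver libraries and from a pair of tables with the authors' own comparisons. The submitters' processing notes name the tools Salmon 0.6.0, STAR 2.5.3a and DESeq2 and the build mm10. Tool roles, annotation and strand setting are not given in the sources used here. Analysed were the authors' normalized counts per gene (a signal scaled between libraries, not per length). The step of a library was taken as its most frequent low value. It was 2.43 in transgenic library 3 and 0.51 to 1.61 in the other libraries, and its relation to depth was not tested. The values are not whole reads: 40.6% to 65.3% of low values lay within 0.1 of a whole multiple of the step. A count test could therefore not be used, and the depth of each library is unknown. The authors' deposited tables give the log2 fold change, a test score and the p-value of DESeq2 with batch and sex terms.

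Genes with a mean of at least 10 were kept (14588 of 48440). Values were tested as log2(value + 1) with limma 3.58.1 (trend, R 4.3.3), with group, batch and sex as terms over all 17 libraries, and p-values were adjusted over all tested genes by the Benjamini-Hochberg method. Fold changes are on this scale, which understates those of low genes. The script was tested on simulated data. Genes described in full are the 6 with the smallest p with the transgene and the 4 with the smallest p with age, plus members shown for their role or spread, and these last were chosen after their values were seen. The members, lists and tests were chosen with earlier results of these data known. Pseudocounts of 0.5 and 5, filters, scalings, terms, batches, males alone, single libraries left out and a replicate block were tried. Promoters and mature microRNAs are from RefSeq (GRCm38.p6), and 3′ UTRs of at least 30 bases from GENCODE M21.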

Additional observations from a re-analysis of the deposited data

Results flagged for a closer look

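Of 111 groups of 5 or 6 libraries, each holding the log2 values of 1 of the 36 genes or their mean, 10 had a library far from the others of its group, by the gap to its nearest neighbour as a share of the range. Chance gives about 5% of groups. Transgenic library 3 was low for Zbp1 (8.26 normalized counts), Stat2 (254) and Igtp (93.3). Aged library 4 was low for Ifi44 (36.5), Gbp3 (88.7) and Irgm1 (715). Among young wild-type libraries, library 6 was low for Gbp5 (2.66) and Iigp1 (8735), library 2 was low for Gbp7 (329) and library 5 was high for Irf7 (3622).

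The transgenic female arm is 1 library, number 3. The interaction of transgene with sex sets the difference of library 3 from young wild-type females against that between transgenic and young wild-type males. With 1 library in that arm it shows no difference between the sexes as such. By limma it passed for 6 genes, with log2 values (females minus males) of -5.35 for Zbp1, -7.10 for Oas3, -2.65 for Stat2, -2.84 for Irgm1, -2.63 for Iigp1 and -4.13 for Igtp. Under the other pseudocounts and without a filter 4 to 6 genes passed. Whether sex or another trait of that library carries the difference cannot be told apart.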

How the results depend on the processing

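In the transgene comparison 0 of 36 genes passed in the reported fit. The count was 1 (Bst2) with a pseudocount of 5, with only the groups compared in the fit, and without transgenic library 3 and aged library 4 together, and it was 2 (Bst2 and Iigp1) in the authors' deposited table. Leaving out 1 library at a time gave 0 to 2, with 1 without transgenic library 2 or 6 or aged library 2 and 2 without aged library 4. Against aged wild type the count was 1 (Bst2) without both of those libraries, and leaving out 1 library gave 0 to 1 (Bst2 without aged library 4, Oasl1 without transgenic library 4). With age it was 0 in every alternative run. The median of the 36 in the transgene comparison moved to 0.56 in batch B alone. Of the 6 genes with the smallest p with the transgene, the fitted sign turned for Dhx58 (0.036) and Oas3 (0.66) in batch B alone. For Oas3 it also turned in males alone (0.15), and other genes of the 36 have the other sign in the authors' deposited table. The number of genes more spread among aged than among young libraries was 15 without aged library 4, and 15 to 31 over single libraries left out. The cause of these changes was not tested. The alternatives for spread, for both libraries left out and for the pathway lists were chosen after seeing the data.

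Groups share replicate numbers. Of 16 same-number pairs, 13 correlated over 0.1 and 3 did not (range -0.23 to 0.59), and 4 libraries correlated best with their own number. Pairing, which would need every pair over 0.1, was therefore not taken as given, although same-number libraries mostly deviated together. Batch was left in these deviations, and same-number pairs mostly shared a batch. Young wild-type library 4, of batch A, had -0.23 with aged library 4 and -0.22 with transgenic library 4, both of batch B. The correlations therefore cannot tell pairing from a shared batch. With the replicate number as a block 0 of 36 genes passed in each comparison, and the medians were -0.22 with the transgene, 0.30 with age and -0.48 against aged wild type. Over all genes the block gave 796, 11 and 247 calls, beside 979, 21 and 372 without it, and Socs3 passed with the transgene (adjusted p = 0.0216). Of the 74 other interferon-stimulated genes 3 passed with the block (Ifitm1, Gbp2b and Psmb9), and Ciita (adjusted p = 0.101), Ifi27 (0.0607) and Gbp10 (0.11) did not, nor did Irf5 (0.0932), while Irf2 passed. Counts over all genes moved by more than 1.5 times elsewhere too. With the transgene they were 541 with sex alone as a term, 623 in batch A, 323 in batch B and 2211 in the authors' table. With age they were 9 at a mean of 50 or with batch alone, 10 with sex alone, 3 in batch A, 0 in batch B (the count at an unadjusted p is 4 of the 36 there), 41 in males and 280 in the authors' table. Against aged wild type they were 176 with sex alone, 215 in batch A, 48 in batch B, 179 in males and 124 with only those groups. Leaving out single libraries gave 654 to 1317, 9 to 37 and 156 to 526 calls in these 3 comparisons. Rescaling libraries to one total gave 515 higher of 915 transgene calls, beside 421 of 979, and moved the median of all genes to 0.14 and that of the 36 to -0.19. Without a depth in reads, low genes such as Mx1, Oas3 and Siglech limit what can be told.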

Other observations

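Against aged wild-type liver, 4 of the 74 other interferon-stimulated genes fell and 0 rose in transgenic liver (1.84% and 0.713% of all genes). They were Gbp2b (-2.87 ± 0.49, limma adjusted p = 0.00422), Ifi27 (-1.84 ± 0.41, adjusted p = 0.0214), Ciita (-2.78 ± 0.64, adjusted p = 0.0279) and Ifi27l2b (-1.73 ± 0.42, adjusted p = 0.0358). Ifi27l2b, a relative of Ifi27, had the smallest adjusted p with age in that list, at 1.55 ± 0.41 on the log2 scale (limma adjusted p = 0.212), and did not pass, while the authors' deposited table gives 1.46 with an adjusted p of 0.0496. Its levels were 422, 396, 1095, 1065 and 596 normalized counts in aged libraries 1 to 5 and 98.9 to 375 in young wild-type libraries.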
